A study of Mus musculus with 6 samples.

Results

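The Mixed neuron class is a group of nuclei that the authors' deposited annotation gives as 1 cluster, named Mixed Ex/In for excitatory and inhibitory neurons. All nuclei with this label were taken, which gave 782 of 28650 nuclei from hippocampi of male PS19 mice. These mice carry the human Tau P301S transgene, which is driven by the prion promoter and is used as a model of tau pathology. Every library came from such mice, so the data hold no animals without the transgene. Mice had a mild traumatic brain injury (TBI) by controlled cortical impact on the right side or a sham operation, and received an adeno-associated virus (AAV) coding for VEGFC, a growth factor of lymphatic vessels, or for GFP as control. The 6 libraries were 1 each of TBI VEGFC left, TBI GFP left, TBI VEGFC right, TBI GFP right, Sham VEGFC right and Sham GFP right. Neither the number of mice behind a library nor their ages are labelled, nor is it stated whether left and right hippocampi were from the same animals, so p-values measure only the spread between these libraries.

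Neurons that use glutamate load it into synaptic vesicles with a vesicular glutamate transporter. In the mouse hippocampus and cortex this is mostly Slc17a7, and in thalamus, hypothalamus and parts of the amygdala mostly Slc17a6. Neurons that use GABA make it with the enzymes coded by Gad1 and Gad2 and load it with Slc32a1. A nucleus with many more UMIs (unique molecular identifiers, which count captured RNA molecules) of one kind can be assigned to that transmitter, and a nucleus with neither can be an undersampled neuron of either kind.

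The class held 46 to 259 nuclei per library and 200538 to 1001788 UMIs, with the fewest of both in TBI GFP right. Its nuclei were of similar depth to those of other neurons, with a median of 4299 UMIs against 4222 in excitatory and 4135 in inhibitory neurons. Levels are given as CPM, the share of a group's UMIs that a gene takes, scaled to a total of 1e+06. Pan-neuronal genes summed to 16310 CPM in the class against 10840 CPM in all other nuclei. Sets of markers of other brain cells were far under the levels in their own clusters: astrocyte markers summed to 418.4 CPM in the class against 18020 CPM in the cluster Astrocyte 1, and oligodendrocyte markers to 115.9 against 16140 CPM in oligodendrocytes. Vascular and fibroblast markers summed to 128.6 CPM against 3506 CPM in fibroblasts, and Ebf1, which is on that list, gave 109.1 CPM of the sum in the class. In a second clustering of neurons, also deposited by the authors, 753 of the 782 nuclei (96.3%) were again together under a mixed label, and 15 had moved to an inhibitory cluster. Of the class nuclei, 4 had a barcode sequence that also occurred in another library.

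The deposited doublet score, which is meant to be high where 2 nuclei shared a droplet, was higher in the class than in other neurons. Its library medians were 0.0609 in TBI VEGFC left, 0.0660 in TBI GFP left, 0.0724 in TBI VEGFC right, 0.0735 in TBI GFP right, 0.0756 in Sham VEGFC right and 0.0647 in Sham GFP right. Those of inhibitory neurons lay between 0.0357 and 0.0484, and those of excitatory neurons between 0.0350 and 0.0518, so the class was above both in 6 of 6 libraries, with no overlap. The mean difference was 0.0295 ± 0.0061 from inhibitory and 0.0232 ± 0.0103 from excitatory neurons (SD, n = 6). The exact two-sided sign-flip permutation test gave p = 0.03125 for each, the smallest that 6 libraries allow, and 0.156 after adjustment over the 10 such comparisons, which does not pass. Scores over 0.05 were found in 82.9% of class nuclei, 32.6% of inhibitory neurons and 42.1% of excitatory neurons. No deposited nucleus scored above 0.099. The part of doublets in the results below was not tested beyond the values without high scores.

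The 5 marker genes given for the class were checked first, as a description, since the authors' clustering used gene expression. Glra3 codes for an alpha subunit of the glycine receptor (chromosome 8, 55940460 to 56130070, mm10). It had 174.3 CPM in the class against 5.98 CPM in all other nuclei. Baiap3 codes for a protein related to Munc13 that acts in dense-core vesicle traffic (chromosome 17, 25242659 to 25256364). It had 158.5 against 7.20 CPM. Cyp19a1 codes for aromatase, which makes estrogens from androgens and is known in the rodent brain from the medial amygdala, the bed nucleus of the stria terminalis and the preoptic area (chromosome 9, 54165937 to 54268110). It had 30.2 against 0.620 CPM. For these 3 genes the class was the highest of the 32 clusters.

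The other 2 markers were shared with other clusters. Slc17a6 (chromosome 7, 51622006 to 51671119) had 88.5 CPM in the class against 7.78 CPM elsewhere, and 104.1 CPM in the cluster Excitatory neuron 6. Ebf1, a transcription factor gene (chromosome 11, 44617317 to 45008091), had 109.1 CPM in the class against 9.79 CPM elsewhere, and 428.0 CPM in fibroblasts. After Glra3, Baiap3 and Cyp19a1, the genes with the largest folds over all other nuclei included Klhl1, Ecel1, the estrogen receptor gene Esr2 and the estrogen-induced gene Greb1. Esr2 and Greb1 were each higher in another cluster than in the class. Across genes, the profile of the class was most like that of the cluster Inhibitory neuron 2, with a Spearman rho of 0.884, and the nearest excitatory cluster was Excitatory neuron 7 with 0.864, which is a description only.

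The markers were spread over different nuclei of the class. None of the 782 nuclei had a UMI of all 5 markers, 199 (25.4%) had none and 305 (39.0%) had 1. Baiap3 was found in 43.4% of nuclei, Glra3 in 38.2%, Slc17a6 in 23.4%, Ebf1 in 10.7% and Cyp19a1 in 5.37%. Of the 42 nuclei with Cyp19a1, 27 also had Glra3 and 24 Baiap3, but 2 had Slc17a6 and none had Ebf1. Shares of nuclei with a UMI depend on depth and can include stray RNA: the choroid plexus gene Ttr was found in 55.2% of class nuclei, at 188.4 CPM against 9684 CPM in choroid plexus epithelium.

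By the transmitter rule, a nucleus was GABA-type where its UMIs of Gad1, Gad2 and Slc32a1 outnumbered those of Slc17a6, Slc17a7 and Slc17a8, and glutamatergic-type in the reverse case. The class held 323 GABA-type nuclei (41.3%, exact 95% interval 37.8 to 44.9%) and 206 glutamatergic-type nuclei (26.3%, 23.3 to 29.6%). Another 16 had equal numbers of both and 237 (30.3%) had neither. Nuclei with neither were shallower, at a median of 3663 UMIs against 4403 in GABA-type and 4912 in glutamatergic-type nuclei. Intervals here and below cover counting error only.

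Both Slc17a6 and the GABA genes were found above the level in a cell type that should lack them. A UMI of Slc17a6 was found in 23.4% of class nuclei against 0.663% of oligodendrocytes. A UMI of Gad1, Gad2 or Slc32a1 was found in 44.5% of class nuclei against 4.51% of oligodendrocytes. Oligodendrocytes were shallower, with a median of 1307 UMIs. With every nucleus thinned to 1000 UMIs, the shares were 7.67% against 0.442% for Slc17a6 and 17.9% against 3.72% for the GABA genes. Slc17a7, the usual transporter of hippocampal excitatory neurons, was found in 7.54% of class nuclei, 5.93% of oligodendrocytes and 61.6% of excitatory neurons, without thinning. Over the class its share was thus close to that of oligodendrocytes, but it was uneven within it. Slc17a7 was found in 18 of 47 nuclei (38.3%) of sub-cluster 8 and 4 of 8 nuclei of sub-cluster 14, as the class was clustered below, and in at most 9.43% of nuclei of any other sub-cluster.

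Over the class as a whole, the 2 kinds of transmitter gene seldom met in 1 nucleus. UMIs of both kinds were found in 39 class nuclei (4.99%, 3.57 to 6.76%), against 6.12% of inhibitory and 5.13% of excitatory neurons, whose intervals overlap that of the class. These shares are over all nuclei, and a GABA gene was found in 44.5% of class nuclei against 84.7% of inhibitory neurons. Among nuclei with a GABA gene, 39 of 348 in the class had both kinds, a larger part than the 268 of 3712 inhibitory neurons. At least 2 UMIs of each kind were found in 5 class nuclei (0.639%). The 39 nuclei had a median doublet score of 0.0793 and a median of 5485 UMIs, against 0.0678 and 4545 in the 506 nuclei with 1 kind.

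Glra3 and Baiap3 were found in nuclei of both types. Glra3 had 159.1 CPM in GABA-type (95% Poisson interval 139.6 to 180.6) and 191.0 CPM in glutamatergic-type nuclei (165.4 to 219.4). Baiap3 had 159.1 CPM in GABA-type (139.6 to 180.6) and 131.8 CPM in glutamatergic-type nuclei (110.7 to 155.7). Cyp19a1 had 49.9 CPM in GABA-type and 5.73 CPM in glutamatergic-type nuclei, and Ebf1 had 81.9 and 173.8 CPM. For Cyp19a1 and Ebf1 the counting intervals of the 2 types did not overlap, while those of Glra3 and of Baiap3 did.

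The share of nuclei in the class differed between libraries, with no common direction for the vector. In left hippocampi after TBI it was 2.77% with VEGFC (2.27 to 3.36%) and 4.77% with GFP (4.22 to 5.37%). In right hippocampi after TBI it was 3.74% with VEGFC (3.19 to 4.35%) and 0.929% with GFP (0.681 to 1.24%). In right hippocampi after sham it was 1.43% with VEGFC (1.15 to 1.77%) and 2.99% with GFP (2.50 to 3.54%). The share was thus lower with VEGFC in TBI left and sham right and higher in TBI right, and no pair of intervals overlapped. The log2 ratios of VEGFC over GFP were -0.78, 2.01 and -1.06, with a mean of 0.05 ± 1.70 (SD, n = 3 contexts). The exact two-sided sign-flip permutation test gave p = 1.0, and the smallest p it allows is 0.25. Fewer neurons of these kinds in the tissue and a different yield or extent of the dissected piece cannot be told apart in these shares.

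**Figure D1:**
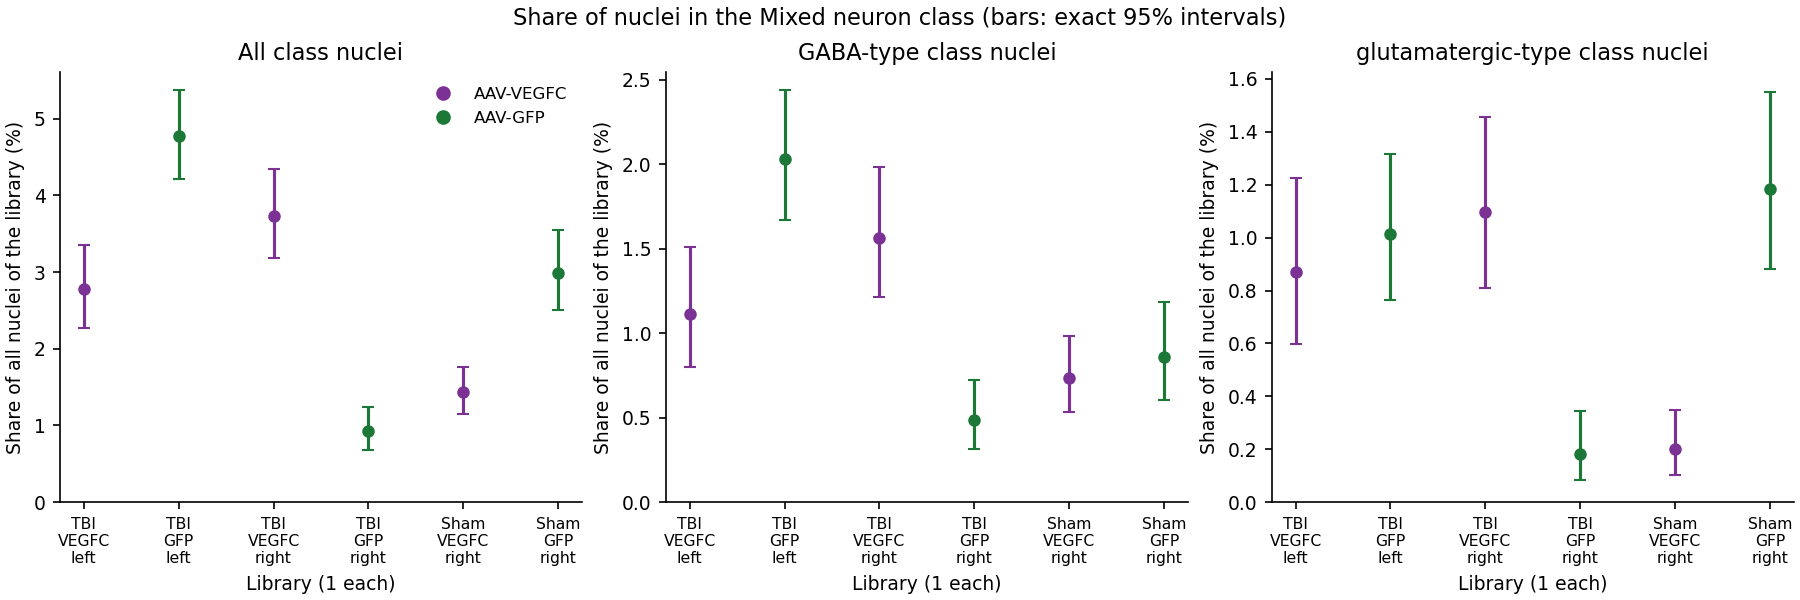
The y axis of each panel is the share of all nuclei of a library in percent, for all Mixed neuron class nuclei, its GABA-type nuclei and its glutamatergic-type nuclei; each point is 1 library and bars are exact 95% intervals. The glutamatergic-type share lies at 0.182% in TBI GFP right and 0.200% in Sham VEGFC right, and between 0.870% and 1.18% in the other 4 libraries.

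The libraries with the lowest class shares had few glutamatergic-type nuclei. These were 0.870% of nuclei in TBI VEGFC left, 1.01% in TBI GFP left, 1.10% in TBI VEGFC right, 0.182% in TBI GFP right, 0.200% in Sham VEGFC right and 1.18% in Sham GFP right. The intervals of TBI GFP right (0.0832 to 0.345%) and Sham VEGFC right (0.103 to 0.349%) lay below those of the other 4 libraries. GABA-type nuclei of the class were 1.12% of nuclei in TBI VEGFC left, 2.03% in TBI GFP left, 1.56% in TBI VEGFC right, 0.485% in TBI GFP right, 0.733% in Sham VEGFC right and 0.858% in Sham GFP right. The sham pair thus differed in glutamatergic-type nuclei, while the intervals of its GABA-type shares overlapped (0.533 to 0.983% with VEGFC and 0.605 to 1.18% with GFP). The highest share was 6.50 times the lowest for glutamatergic-type and 4.18 times for GABA-type nuclei.

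Among nuclei with a transmitter type, the GABA-type share was 56.2% in TBI VEGFC left (41 of 73), 66.7% in TBI GFP left (110 of 165), 58.8% in TBI VEGFC right (67 of 114), 72.7% in TBI GFP right (24 of 33), 78.6% in Sham VEGFC right (44 of 56) and 42.0% in Sham GFP right (37 of 88). The interval in Sham VEGFC right (65.6 to 88.4%) did not overlap that in Sham GFP right (31.6 to 53.0%), while those of the 2 TBI pairs did. The VEGFC minus GFP difference was -10.5 points in TBI left, -13.96 points in TBI right and 36.5 points in sham right, with a mean of 4.02 ± 28.2 points (SD, n = 3) and p = 1.0 in the exact sign-flip permutation test. With nuclei thinned to 1000 UMIs, the shares in the sham pair were 87.0% with VEGFC and 43.2% with GFP. With a margin of at least 2 UMIs between the kinds they were 81.8% (59.7 to 94.8%) with VEGFC and 57.4% (42.2 to 71.7%) with GFP, and the intervals overlapped. In the class, TBI GFP right and Sham VEGFC right also had the highest summed astrocyte markers (753.0 and 521.1 CPM, against 317.6 to 493.1 CPM in the other 4 libraries) and choroid plexus markers (478.7 and 537.3 CPM, against 292.6 to 346.4 CPM). TBI GFP right had the highest median mitochondrial share (0.169%, against 0.0800 to 0.113%). The part of these in the make-up of the class was not tested.

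**Figure D2:**
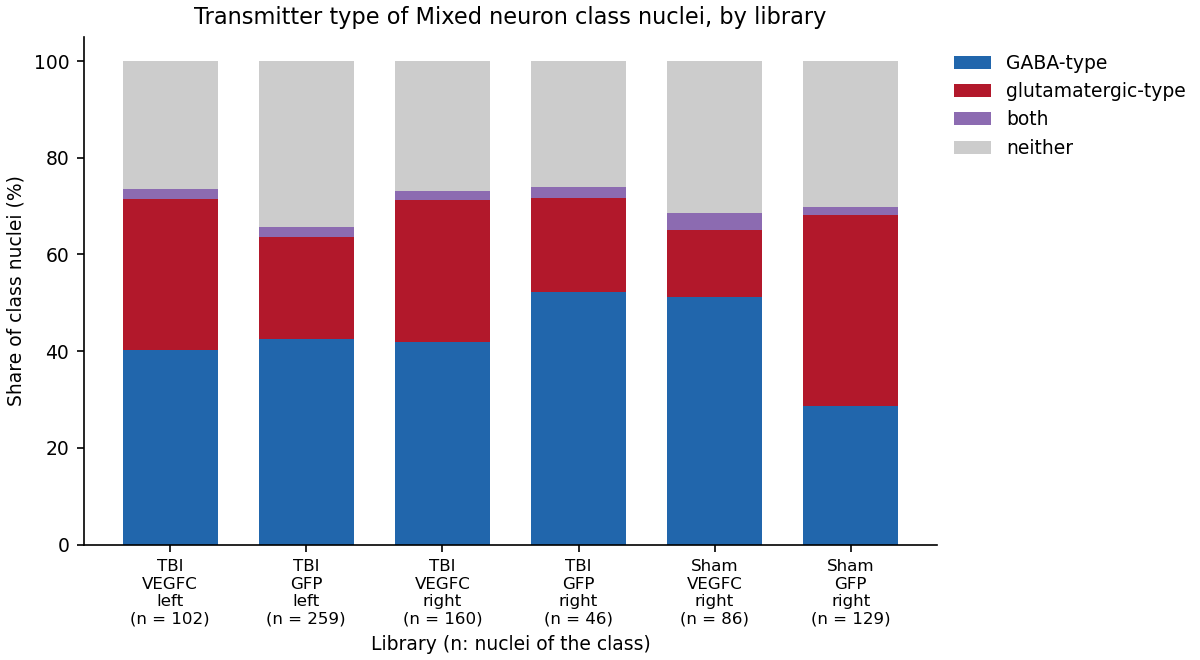
Stacked bars give the share of Mixed neuron class nuclei in percent that are GABA-type, glutamatergic-type, both or neither in each library, with the number of class nuclei under each bar. The glutamatergic part is 13.95% in Sham VEGFC right against 39.5% in Sham GFP right.

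To see which neurons the class holds, its 782 nuclei were clustered again, which gave 14 sub-clusters of 8 to 119 nuclei. Their leading genes, by fold over the rest of the class, are a description and no test, since the same genes formed the sub-clusters. Sub-clusters were grouped by the type that most of their typed nuclei had, at 2 to 1 or more. By this rule 6 were GABA-majority with 414 nuclei, 5 were glutamatergic-majority with 258 nuclei and 3 were of mixed type with 110 nuclei.

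Among the GABA-majority sub-clusters, number 9 (38 nuclei, 33 GABA-type and none glutamatergic-type) was led by Esr2 at 330.3 CPM against 5.93 CPM in the rest of the class, Cyp19a1 at 404.3 against 10.7 CPM and Moxd1 at 205.0 against 5.64 CPM. Of the 9 genes listed for medial amygdala and bed nucleus, 4 were at least 2-fold up with 10 or more UMIs in it, Cyp19a1, Moxd1 and Greb1 among them. It also had 3 dentate granule list genes (Stxbp6, Trpc6 and Glis3) at least 2-fold up, none among its 10 leading genes. It was called medial amygdala and bed nucleus-like as a label from the list with leading genes, and its origin was not tested. The neuropeptide gene Cartpt, at 250.6 against 9.20 CPM, was also among its leading genes. It held 21 of the 42 nuclei with Cyp19a1. Sub-cluster 10 (25 nuclei) held 11 more, at 179.1 CPM of Cyp19a1, and had the highest share of nuclei with Glra3 (76.0%) and with Baiap3 (80.0%) of the 14. It was led by Nxph2. Of the same 9 listed genes 5 were at least 2-fold up in it, none of them among its 10 leading genes, so it stayed unnamed.

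Of the larger GABA-majority sub-clusters, 2 and 4 had no UMI of Cyp19a1, number 3 had it in 1 nucleus and number 7 in 5 nuclei. Sub-cluster 2 (112 nuclei, 69 GABA-type) was led by the transcription factor genes Otx2 (46.3 against 1.62 CPM), Lef1 and Rorb, the last at 313.1 against 34.3 CPM. It had 5 of the 9 listed genes of thalamic glutamatergic neurons at least 2-fold up, but its typed nuclei were mostly GABA-type, and it was not named. Sub-cluster 3 (97 nuclei, 73 GABA-type) was led by Sp9, Wfs1 and Foxp2, which was at 477.9 against 99.5 CPM. It matched 3 members of each of the intercalated amygdala, central amygdala and reticular thalamus lists and so had no name. Sub-cluster 4 (89 nuclei, 43 GABA-type) was led by the follistatin gene Fst, Lhx8 (66.2 against 3.47 CPM), a transcription factor gene of ventral forebrain neurons, Tcf7l2, and Ccbe1, which codes for a secreted protein that aids VEGFC processing (98.0 against 12.9 CPM). Its first leading gene, Hsf2bp, came from 1 nucleus. Sub-cluster 7 (53 nuclei, 41 GABA-type) had small folds, led by Prox1os and Sox2ot.

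The glutamatergic-majority sub-clusters were led by other genes. Sub-cluster 1 (119 nuclei, 48 glutamatergic-type and 5 GABA-type) was led by Spint1 (27.7 against 0.986 CPM), and Casr, Nr4a3 and Fos were also among its leading genes. Nr4a3 and Fos are immediate early genes, and each was found in 6 nuclei. Sub-cluster 6 (72 nuclei, 45 glutamatergic-type and 3 GABA-type) was led by Abi3bp (198.8 against 4.76 CPM), Meis1 (526.0 against 34.0 CPM) and Col19a1. Sub-cluster 8 (47 nuclei) was led by the cortical transcription factor gene Fezf2, found in 7 nuclei, with Hgf and Ebf2. Sub-cluster 12 (12 nuclei) was led by Hmcn1, Pappa2 and the neurotensin gene Nts (593.4 against 14.7 CPM). Sub-cluster 14 (8 nuclei) was led by Robo3, Irx5 and Pou4f1, with Ebf1 at 690.8 CPM in 7 of 8 nuclei. Sub-cluster 8 had 3 genes of the dentate granule list at least 2-fold up, none of them among its 10 leading genes, and the other 4 had fewer than 3 genes of any list of a brain region at least 2-fold up with 10 or more UMIs. In sub-cluster 14 the habenular list genes Nwd2 (7689 against 122.1 CPM, in 8 of 8 nuclei) and Etv1 (871.1 against 35.9 CPM, in 6) passed this rule. The other 6 habenular genes, Pou4f1 among them, were also more than 2-fold up but had 1 to 4 UMIs each. These 5 stayed unnamed.

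Of the sub-clusters of mixed type, number 5 (76 nuclei, 22 of each type) was led by genes of hypothalamic neuroendocrine neurons. Avp, the vasopressin gene, had 157.9 against 4.98 CPM, Oxt, the oxytocin gene, 32.8 against 0.311 CPM, and Sim1, a transcription factor gene of such neurons, 116.2 against 4.36 CPM. Avp came from 5 nuclei and Oxt from 2, while Sim1 was found in 17 of the 76, so the sub-cluster as a whole was not named from them. Sub-cluster 11 (23 nuclei) was led by Onecut2 at 294.1 against 7.27 CPM. Slc17a6 was found in 12 of its 23 nuclei and Gad2 in 12, with no UMI of Gad1 or Slc32a1. As 4 nuclei had neither kind of transmitter gene, some had both. The median doublet score of sub-cluster 11 was 0.0756, and the part of doublets in this was not tested. Sub-cluster 13 (11 nuclei) was led by Chat, the enzyme of acetylcholine synthesis, at 457.2 against 0.858 CPM, the choline transporter gene Slc5a7 at 695.7 against 4.86 CPM, and Prima1, which anchors acetylcholinesterase. Chat was found in 10 of its 11 nuclei, and 7 of the 11 came from TBI GFP left. With 2 of the listed cholinergic genes it was not named.

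How far the sub-clusters held together depended on the clustering setting. Sub-clusters 6, 9, 11, 12 and 13 each stayed whole at both a lower and a higher resolution, and at the lower one they held at most 1 nucleus from elsewhere. Sub-cluster 10 was merged at the lower resolution into a cluster of 167 nuclei with most of sub-clusters 3 and 7. Sub-cluster 14 was merged at both, into a cluster of 290 nuclei at the lower and of 71 at the higher resolution.

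**Figure D3:**
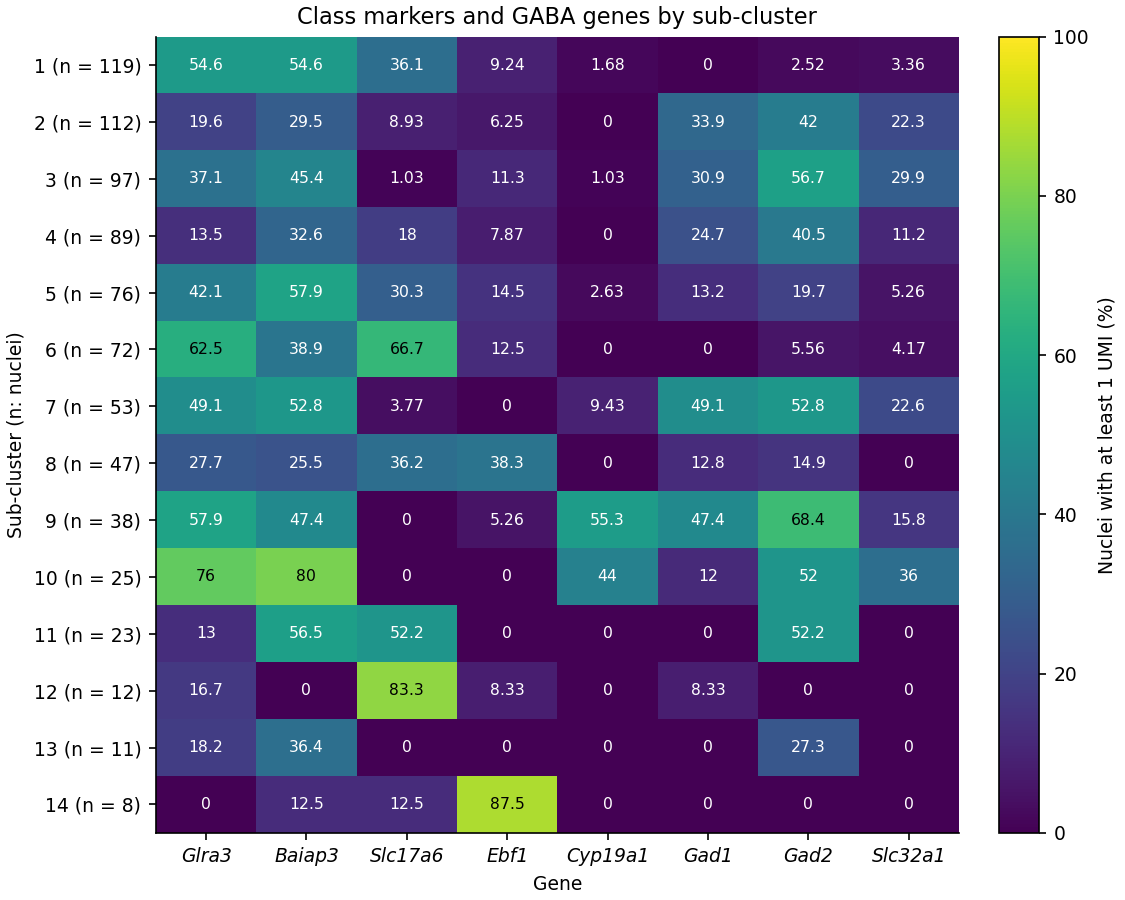
Colours and numbers give the percent of nuclei of each of the 14 sub-clusters (rows, by size) with at least 1 UMI of the 5 class markers and of Gad1, Gad2 and Slc32a1 (columns). Cyp19a1 is found mainly in sub-clusters 9 (55.3%) and 10 (44.0%), which have no nucleus with Slc17a6, while Slc17a6 is in 83.3% of nuclei of sub-cluster 12 and 66.7% of sub-cluster 6.

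The sub-clusters were not in the same proportions in the libraries. The 5 glutamatergic-majority sub-clusters together were 42.2% of class nuclei in TBI VEGFC left (32.4 to 52.3%), 20.5% in TBI GFP left (15.7 to 25.9%), 44.4% in TBI VEGFC right (36.5 to 52.4%), 8.70% in TBI GFP right (2.42 to 20.8%), 4.65% in Sham VEGFC right (1.28 to 11.5%) and 64.3% in Sham GFP right (55.4 to 72.6%). The share was above that of the paired GFP library in both TBI contexts and below it after sham, with intervals that did not overlap in any of the 3 pairs. Nuclei are not replicates of a condition and each combination had 1 library, so no test of these shares was made.

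Single sub-clusters carried most of this pattern. Sub-cluster 6 had 9 nuclei in TBI VEGFC left, 14 in TBI GFP left, 22 in TBI VEGFC right, none in TBI GFP right or Sham VEGFC right, and 27 in Sham GFP right. The exact 95% upper limits for a count of none were 7.71% of class nuclei in TBI GFP right and 4.20% in Sham VEGFC right (3 nuclei would be 6.52% and 3.49%), against the 20.9% found in Sham GFP right. Sub-cluster 1 had 23, 24 and 34 nuclei in the first 3 of these libraries, 1 in TBI GFP right, 2 in Sham VEGFC right and 35 in Sham GFP right. Sub-cluster 4 went the other way, with 30.4% of class nuclei in TBI GFP right, 18.5% in TBI GFP left and 17.4% in Sham VEGFC right, against 2.50% to 3.92% in the other 3 libraries. Sub-cluster 11 made up 10.9% of class nuclei in TBI GFP right (5 nuclei, 3.6 to 23.6%) and 10.5% in Sham VEGFC right (9 nuclei, 4.9 to 18.9%). Elsewhere it made up at most 2.94%, and both intervals overlapped that of TBI VEGFC left (3 nuclei, 0.61 to 8.36%).

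**Figure D4:**
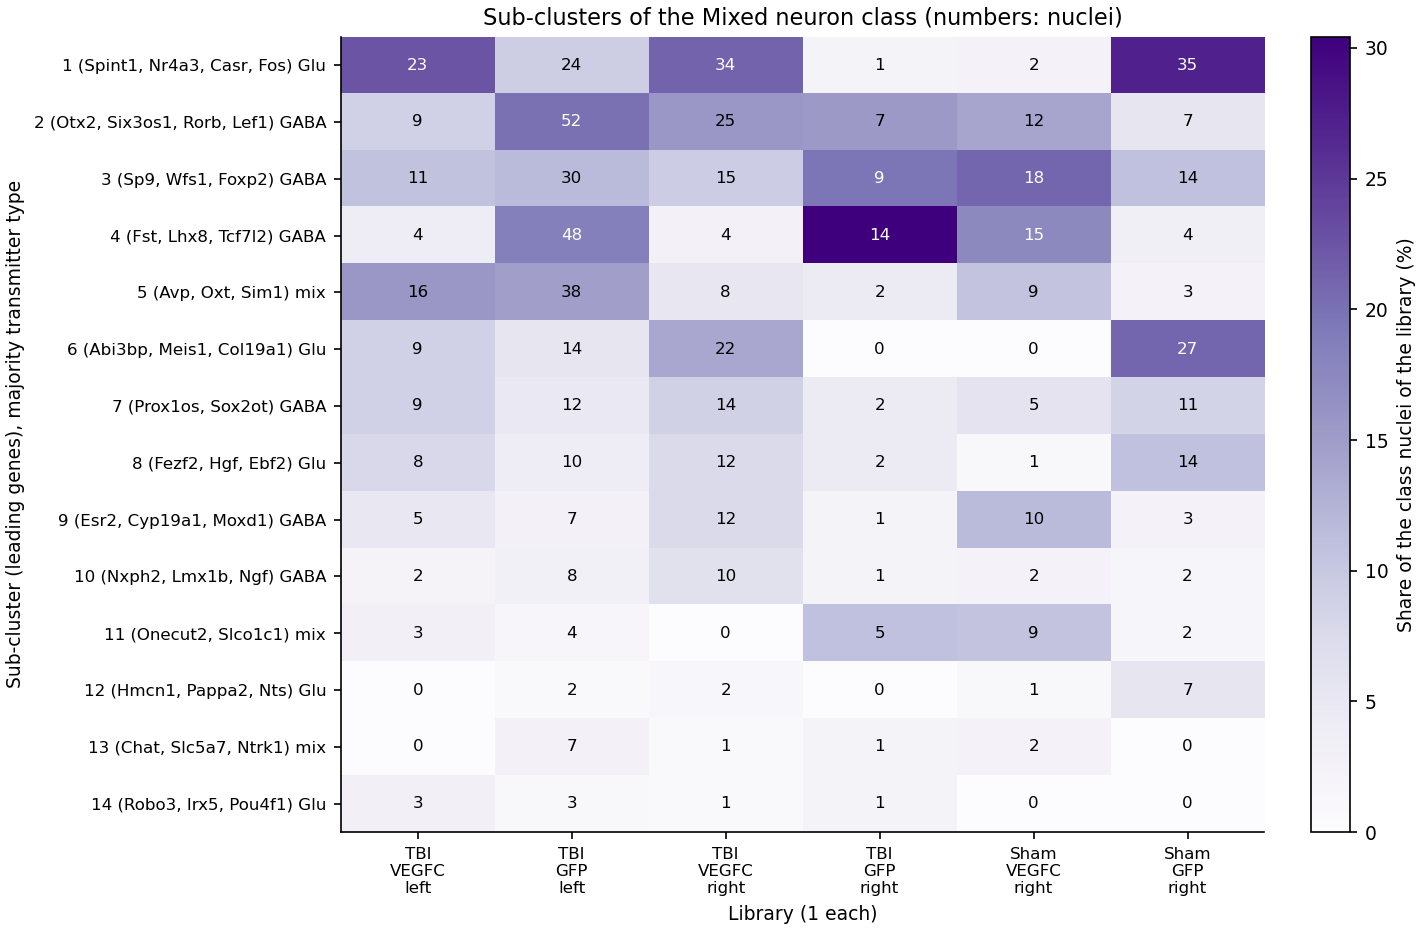
Rows are the 14 sub-clusters with some of their leading genes and majority type (Glu, GABA or mix), columns the 6 libraries, colour the share of the library's class nuclei in percent, and numbers the nuclei. Sub-clusters 1 and 6 are nearly empty in TBI GFP right and Sham VEGFC right, and 4 of the 14 sub-clusters have at least 46.4% of their nuclei from TBI GFP left.

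Gene expression in the class was then compared between the arms on counts summed per library, with edgeR's quasi-likelihood test and Benjamini-Hochberg adjustment over 9595 genes in 1 model of context and vector. None of the 9595 genes passed an adjusted p of 0.05 for VEGFC against GFP (0% called), for TBI right against sham right (0%) or for TBI left against TBI right (0%). At an unadjusted p under 0.05 there were 399 genes (4.16%), 302 (3.15%) and 262 (2.73%). DESeq2 and limma-voom also called none in the 3 comparisons. TBI right libraries enter both of the injury and side comparisons. These calls changed with the libraries and nuclei used. Without either sham library, the remaining sham library is alone in its context and adds nothing to the vector contrast. The vector effect then comes from the same TBI libraries, so these fits are not separate checks.

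For VEGFC against GFP the smallest p belonged to Cyp19a1. It had 33.5, 51.3 and 71.2 CPM with VEGFC in TBI left, TBI right and sham right, against 13.98, 9.97 and 9.99 CPM with GFP. The 3 VEGFC libraries were all above the 3 GFP libraries. The log2 fold was 1.99 ± 0.38 (SE), with an adjusted p of 0.803, so it did not pass. Its UMIs came from few nuclei, namely 6, 17 and 9 with VEGFC and 8, 1 and 1 with GFP in the same contexts, and the 6 UMIs of Sham GFP right were in 1 nucleus. Sub-cluster 9, which Cyp19a1 helped to define, made up 4.90%, 7.5% and 11.6% of class nuclei with VEGFC, against 2.70%, 2.17% and 2.33% with GFP. A larger share of nuclei with Cyp19a1 and more of its RNA per nucleus cannot be told apart in these sums. Within GABA-type nuclei it had 56.7, 74.6 and 106.5 CPM with VEGFC against 20.3, 17.0 and 34.6 CPM with GFP, a log2 fold of 1.64 ± 0.43 with an adjusted p of 0.109. The adjusted p by edgeR was 0.00219 with no filter on low counts and ranged up to 1.0 over the alternatives. Leaving out either library of a context takes that context out of the vector contrast. The log2 fold was 2.647 without TBI GFP left and 2.653 without TBI VEGFC left. It was 1.909 without TBI GFP right and 1.916 without TBI VEGFC right. It was 1.573 without Sham GFP right and 1.574 without Sham VEGFC right.

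Esr2, which shared sub-cluster 9 with Cyp19a1, had 16.7, 47.8 and 45.3 CPM with VEGFC against 5.99, 4.99 and 11.7 CPM with GFP in the same order. All 3 VEGFC libraries were higher than all 3 GFP libraries (log2 fold 1.98 ± 0.44, adjusted p = 1.0 by edgeR). The other 3 genes with the smallest p and a positive fold were Maml2, a Notch coactivator gene, Bicc1, an RNA-binding protein gene, and Sox5, a transcription factor gene, with log2 folds of 0.96, 1.09 and 1.01. Maml2 and Bicc1 were higher with VEGFC in 3 of 3 pairs and Sox5 in 2 of 3. On the negative side the named genes were Pwwp3a (log2 fold -1.59), Rsrp1 (-0.77) and Coro6 (-1.43), all with adjusted p = 1.0 by edgeR and lower with VEGFC in 3 of 3 pairs; 2 more had clone names. All 6 of the tested genes for sex steroid receptors and aromatase had positive folds, with a median of 0.39 against 0.00 over all 9595 genes, 2 of them (Cyp19a1 and Esr2) at an unadjusted p under 0.05 and none past the adjusted threshold. Of the 9 genes listed for medial amygdala and bed nucleus, 5 of which are on the sex steroid list too and 3 of which are markers of the class, 8 were tested and all 8 had positive folds, with a median of 0.29. Of 29 neuropeptide genes 8 were tested, and 7 had positive folds with a median of 0.62, Tac1, Cartpt and Adcyap1 at an unadjusted p under 0.05.

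The other class markers did not pass. Glra3 had 211.0, 200.6 and 119.8 CPM with VEGFC in TBI left, TBI right and sham right, against 146.7, 69.8 and 209.8 CPM with GFP (log2 fold 0.33 ± 0.29). Baiap3 had 165.7, 140.9 and 210.4 CPM with VEGFC against 176.7, 89.8 and 141.5 CPM with GFP (0.32 ± 0.20). Both were higher with VEGFC in 2 of 3 pairs, with overlapping arms. Slc17a6 had 103.8, 78.8 and 48.5 CPM with VEGFC against 79.9, 99.7 and 118.2 CPM with GFP (-0.25 ± 0.27), and Ebf1 was lower with VEGFC in 3 of 3 pairs (-0.39 ± 0.24). Of the transmitter genes, Gad1, Gad2, Slc32a1 and Slc17a7 had log2 folds between -0.16 and 0.11. All of these had an adjusted p of 1.0 by edgeR.

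**Figure D5:**
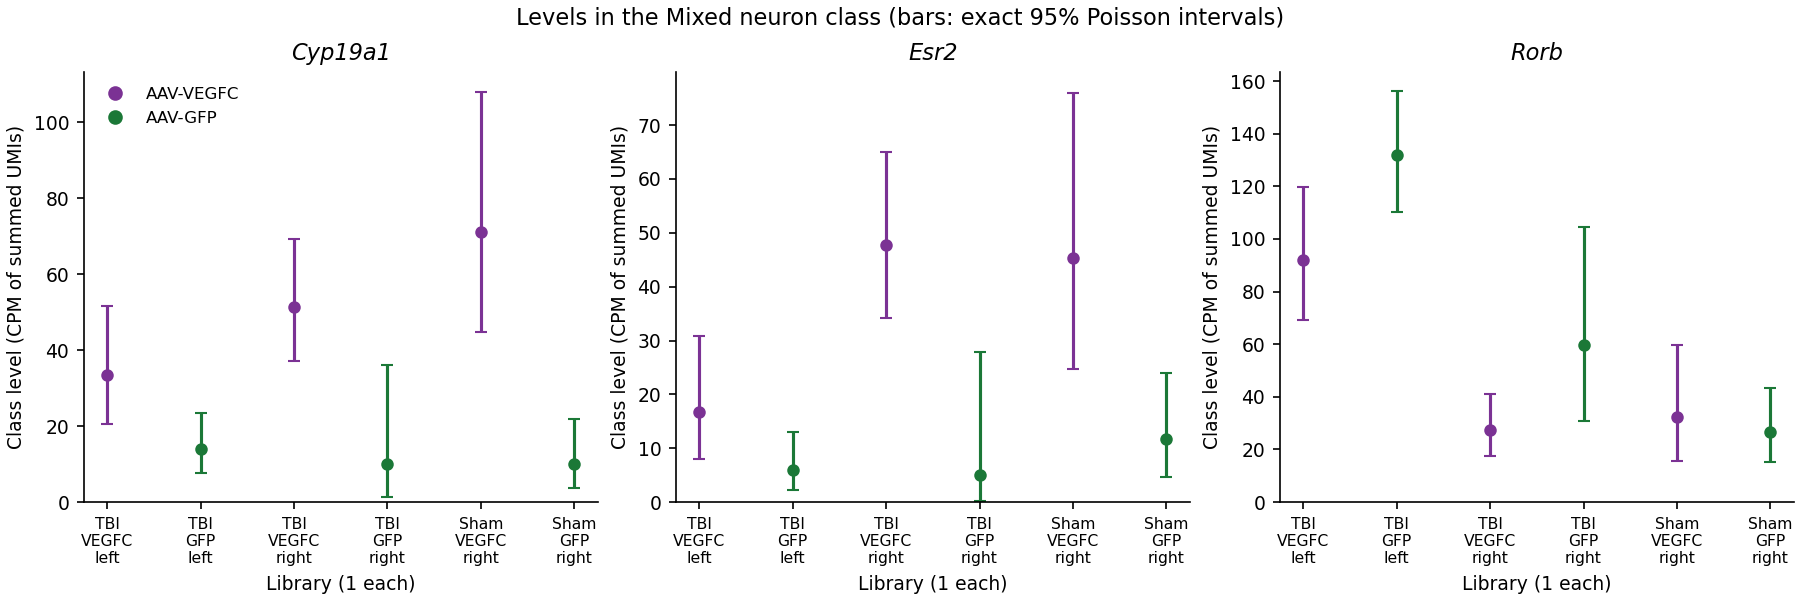
The y axes give the level of Cyp19a1, Esr2 and Rorb in the class in CPM, each point 1 library with its exact 95% Poisson interval. Cyp19a1 lies at 33.5 to 71.2 CPM in the VEGFC libraries and 9.97 to 13.98 CPM in the GFP libraries, and Rorb is highest in the left TBI libraries.

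For TBI right against sham right, Zfhx4, a homeobox gene, had 137.3 and 219.4 CPM after TBI with VEGFC and GFP, against 87.4 and 66.6 CPM after sham (log2 fold 1.24 ± 0.30). Tcf7l2, a transcription factor gene of thalamic and other caudal neurons, had 31.0 and 84.8 CPM against 12.9 and 6.66 CPM after sham (log2 fold 2.44 ± 0.59), from 5 and 4 nuclei against 2 and 3. Sub-cluster 4, of which it was a leading gene, made up 2.50% and 30.4% of class nuclei after TBI against 17.4% and 3.10% after sham. Of the 111 class UMIs of Tcf7l2, 51 were in sub-cluster 4, 27 in sub-cluster 2 and 25 in sub-cluster 14, which had it in 8 of 8 nuclei and held 1 and 1 nuclei after TBI against 0 and 0 after sham in these libraries. Synpo2 had 44.2 and 34.9 CPM after TBI against 9.71 and 8.33 CPM after sham. For each of these 3 genes both TBI libraries were above both sham libraries, and none passed (adjusted p = 1.0 by edgeR). The lowest p on the negative side belonged to Shisa6, which codes for an AMPA receptor partner, with 82.4 and 214.4 CPM after TBI against 239.5 and 264.8 CPM after sham (log2 fold -0.96 ± 0.27, adjusted p = 1.0). Gzmk, Ngdn, Trp53i11 and Atxn7l1os2 had log2 folds of -1.07, -1.64, -2.26 and -1.99, lower after TBI in 2 of 2 pairs and not past the threshold; 2 more genes on the positive side had clone names. Ebf1 had a log2 fold of 1.10 ± 0.32 and did not pass. Avp had 5 and 0 UMIs after TBI with VEGFC and GFP, against 41 and 0 UMIs after sham, and 31 of the 41 were in 1 nucleus. Of the 9 thalamic list genes, 5 were tested and all 5 had positive folds, with a median of 0.77 against 0.00 over all genes; Tcf7l2 and Synpo2 are 2 of them.

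For TBI left against TBI right, Rorb had 92.1 and 131.8 CPM on the left with VEGFC and GFP, against 27.5 and 59.8 CPM on the right. Both left libraries were above both right ones (log2 fold 1.505 ± 0.30, adjusted p = 1.0 by edgeR). Rorb was a leading gene of sub-cluster 2, with 142 UMIs there, and that sub-cluster made up 8.82% and 20.1% of class nuclei on the left against 15.6% and 15.2% on the right. Prkd1, a protein kinase gene, had 100.5 and 48.9 CPM on the left against 16.7 and 29.9 CPM on the right (log2 fold 1.92 ± 0.42). Tmcc3 had a log2 fold of 1.00 and Syt9, a synaptotagmin gene, of 1.12, and on the negative side Pdzd2 had -0.91, St18 -1.91, Mamld1 -0.98 and Lin54 -2.01. Each of these went the same way in 2 of 2 pairs, and none passed.

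In GABA-type nuclei alone, which held 24 to 110 nuclei per library, 8 of 5178 genes (0.154%) passed for VEGFC against GFP, 1 (0.0193%) for TBI right against sham right and 3 (0.0579%) for TBI left against TBI right. These genes were named, and each library was left out of this fit in turn, after the values were seen. With VEGFC, Npas2, a circadian transcription factor gene, had 113.4, 154.7 and 175.5 CPM against 47.5, 59.7 and 46.1 CPM with GFP in TBI left, TBI right and sham right (log2 fold 1.47 ± 0.30, edgeR adjusted p = 0.0108). Alk, a receptor tyrosine kinase gene, had 93.1, 102.2 and 131.6 CPM against 169.5, 281.4 and 305.5 CPM (log2 fold -1.17 ± 0.24, adjusted p = 0.0108). Npas2 was thus higher and Alk lower with VEGFC in every pair, with no overlap between the arms. Il1rap, which codes for the shared coreceptor of interleukin-1 family receptors, had 162.0, 55.2 and 62.7 CPM with VEGFC against 49.7, 8.53 and 23.1 CPM with GFP, the last 2 from 1 and 4 UMIs. Elavl2, a neuronal RNA-binding protein gene, had 214.6, 267.9 and 307.1 CPM with VEGFC against 481.5, 494.6 and 547.6 CPM with GFP (log2 fold -0.96 ± 0.21). Sox5, Arhgap6, Maml2 and 1 clone-named gene were the others called. Sox5 was higher with VEGFC in 2 of 3 pairs, with 154.7 CPM against 162.0 CPM with GFP in TBI right. In all 6 genes were higher (0.116%) and 2 lower (0.0386%). Whether any of the 8 genes passed, and which, depended on the library left out, and all 8 kept their sign each time. Leaving out either library of a context takes that context out of the vector contrast. The fits without its VEGFC and without its GFP library are thus nearly the same check.

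The other GABA-type calls were few. Ebf1 had 104.9 and 127.9 CPM after TBI on the right with VEGFC and GFP, against 12.5 and 23.1 CPM after sham (log2 fold 3.01 ± 0.61, edgeR adjusted p = 0.0238), from 38 and 15 UMIs against 2 and 4. Over all libraries its 123 UMIs in GABA-type nuclei came from 21 of 323 nuclei. In the whole class, Ebf1 was found in 22 and 4 nuclei after TBI on the right with VEGFC and GFP, against 2 and 15 after sham. It had no UMI in GABA-type nuclei of TBI VEGFC left and 64 in those of TBI GFP left. It was not called without Sham GFP right, without TBI GFP left or without TBI VEGFC right. On the left after TBI, the channel gene Trpm3 and the growth hormone receptor gene Ghr were higher than on the right, with log2 folds of 1.27 ± 0.27 and 1.48 ± 0.32, beside 1 clone-named gene. None of these 3 passed without TBI GFP left. In glutamatergic-type nuclei alone, 9 to 55 per library, no gene passed in any of the 3 comparisons by edgeR, with 136 to 170 genes at an unadjusted p under 0.05.

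Mapt, the mouse tau gene, had 349.9, 327.2 and 349.6 CPM in the class with VEGFC in TBI left, TBI right and sham right, against 349.4, 384.0 and 316.4 CPM with GFP. The arms overlapped, and the log2 fold was 0.00 ± 0.17. Of the 17 genes for dense-core vesicle release, all were detected with 10 or more UMIs in the class, and Baiap3 alone was highest there among the 32 clusters. Of the 5 glycine receptor subunit genes, Glra1 (15.2 CPM) and Glra3 were highest in the class, while Slc6a5, the transporter that marks neurons releasing glycine, had no UMI in it.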

How the data were processed

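Nuclei were extracted from microdissected hippocampi and sequenced with 10x Genomics 3' chemistry v3.1, per the labels. The submitters' processing notes name Cell Ranger 7.0.1 and Scanpy as tools, with genome build mm10. The authors deposited UMI counts that are not normalized, and all values were whole. Their deposited metadata hold the class, cluster and doublet score of each nucleus and its percent of mitochondrial UMIs. No doublets were called anew, because deposited scores stop at 0.099. The sum of a nucleus equalled its deposited total in 26823 of 28650 nuclei, and the size of the difference in the others is not given here. Members and gene lists were chosen with earlier results of these data known.

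Counts of class nuclei were summed per library and tested with edgeR 4.0.16 in R 4.3.3 (filterByExpr, TMM, quasi-likelihood test, context plus vector, 2 residual degrees of freedom). The steps were tested on simulated data. An SE is the absolute log2 fold over the square root of F. Sub-clusters came from scanpy 1.11.5 (2000 variable genes, 30 components, 15 neighbours, Leiden resolution 1). Leading genes have at least 20 CPM and are ranked by fold after adding 1 CPM. A sub-cluster was named only from 3 or more markers of 1 list. Names were also withheld for further reasons, which are given with each sub-cluster, such as no list gene among the leading genes. Named genes are the class markers, the transmitter genes, Mapt and, per comparison, the 5 of smallest p on each side, since fewer than 5 were called; clone-named genes were only counted. Some genes are not reported here. Intervals are exact Clopper-Pearson or Poisson 95% intervals. Gene positions are those of GENCODE M21.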

Additional observations from a re-analysis of the deposited data

Results flagged for a closer look

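The share of nuclei in the class stood out because the direction of VEGFC against GFP differed between contexts. The log2 ratio was -0.78 in TBI left, 2.01 in TBI right and -1.06 in sham right. The GABA-type share of typed nuclei also took different directions, with VEGFC minus GFP differences of -10.5 points in TBI left, -13.96 points in TBI right and 36.5 points in sham right. Each context had 1 library per vector, so these differences between contexts were not tested. TBI GFP right and Sham VEGFC right, which had the lowest class shares, were also the libraries with the highest median doublet scores in the class, 0.0735 and 0.0756, and with the highest summed astrocyte and choroid plexus markers there. The part of these in the shares was not tested.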

How the results depend on the processing

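Libraries could not be paired by animal, because each has a replicate number of its own and shared animals are not labelled. No replicate block could thus be fitted, and VEGFC and GFP were compared within context. The counts of called genes depended on the setting most of all, against 0 in each main comparison. With no filter on low counts 6, 3 and 4 genes passed for the vector, the injury and the side comparison, with GABA-type nuclei alone 8, 1 and 3, and with doublet scores of at most 0.05, which left 2 class nuclei in TBI GFP right, 1, 1 and 1. Leaving out each library in turn gave 0 to 123, 0 to 45 and 0 to 6 called genes. Those fits leave 1 residual degree of freedom and 1 context with a lone library, assumed to vary like the others. The lone library adds nothing to the vector contrast, so leaving out either library of a context is nearly the same check of it. RLE factors, library totals, DESeq2, limma-voom, glutamatergic-type nuclei alone, equal nuclei per library and, for the vector, no context term gave 0. Among named genes 3 folds reversed: Maml2 was -0.081 for VEGFC against GFP in glutamatergic-type nuclei, Sox5 -0.010 at low doublet scores, and St18 0.32 for TBI left against TBI right with equal nuclei. The cause was not tested.

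The mean log2 ratio of the class share was 0.06 among neurons only and 0.22 at low doublet scores, where the ratios were -0.56 in TBI left, 3.92 in TBI right and -2.68 in sham right. The mean over all nuclei ranged between -0.92 and 0.61 with each context left out in turn, since a lone library of a context gives no ratio. Leaving out TBI right reversed it. With 5 libraries, the smallest p for the doublet score is 0.0625, and its difference was 0.0278 to 0.0306 from inhibitory and 0.0201 to 0.0257 from excitatory neurons. The GABA-type share of typed nuclei moved to 68.0% over the whole class, 57.4% in Sham GFP right and 72.3% in TBI VEGFC right with a margin of 2 UMIs, and to 66.3% over the whole class with Slc17a6 alone. At low doublet scores it was 26.3% in Sham GFP right, 76.3% in TBI GFP left, and 100% in Sham VEGFC right and TBI GFP right, from 6 and 1 typed nuclei. At resolution 0.5 there were 8 sub-clusters in place of 14, and at 1.5 there were 17. Depth limits TBI GFP right most, where 3 UMIs of the class sum equal 14.96 CPM.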
